A study of Mus musculus with 12 samples.

Results

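The genes examined here carry fatty acids from circulating lipoproteins into heart and fat cells. Lpl, Lmf1, Gpihbp1 and Angptl4 encode lipoprotein lipase and the proteins that fold, place and inhibit it. Cd36, Slc27a1 and Vldlr encode proteins of the cell surface, and Fabp3, Fabp4 and Fabp5 encode cytosolic fatty acid binding proteins. These 10 genes, of 23042 listed, were chosen by name for their place on this route. Each of them had 1 entry in the ventricle table and 1 in the fat table, and all 10 passed the filter on low expression in both tissues.

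RNA was sequenced from heart ventricles and from epididymal white adipose tissue (EWAT) of MED13cTg mice and their WT littermates, with 3 libraries per genotype and tissue and 12 in all. In MED13cTg mice, MED13, a subunit of the Mediator kinase module that moderates transcription, is overexpressed in the heart. All mice were C57BL/6 males on normal chow, fed ad libitum and killed in the late afternoon, at an age of 6 weeks by the sample labels, while the study's methods give a wider range. The promoter that drives the transgene and whether a single mouse gave both tissues are not given in the sources used here. The comparison of genotypes asks whether elevated cardiac MED13 went with a change in expression of the fatty acid entry route in the heart itself or in fat.

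Lipoprotein lipase is made in muscle and fat cells, matures in the endoplasmic reticulum with the help of LMF1, and is carried by GPIHBP1 across capillary endothelium to the vessel lumen, where it splits the triglycerides of lipoproteins. ANGPTL4 inactivates the enzyme and is induced in fat on fasting. The fatty acids set free cross the membranes of endothelial and parenchymal cells with the help of CD36 and FATP1, the product of Slc27a1, and are bound inside by FABP proteins. The heart draws most of its energy from such fatty acids, whereas adipocytes store them.

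Expression was given as FPKM, fragments per kilobase of transcript scaled to all mapped fragments, so levels of different genes are compared per length. The absolute depth of the libraries is unknown from these values. Judged by the most frequent ratio of FPKM values under 0.15, the other ventricle libraries held 0.93 to 1.02 times the fragments of WT replicate 1, and the other EWAT libraries 0.66 to 0.94 times, with the fewest in MED13cTg replicate 1. In EWAT that ratio was shared by 10 of 618 genes compared for MED13cTg replicate 1, 26 of 823 for replicate 2 and 38 of 1299 for replicate 3. It is therefore a rough estimate. Med13 itself averaged 216 ± 42.5 FPKM (SD, n = 3) in MED13cTg ventricles against 11.7 ± 1.26 FPKM in WT ventricles, and 9.85 ± 1.75 against 10.1 ± 0.764 FPKM in EWAT, so it was high in the 3 libraries labelled as transgenic heart. The 10 cardiac myocyte markers summed to 68386 to 97181 FPKM in ventricles and to 37.1 to 62.1 FPKM in EWAT.

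The EWAT libraries differed widely in their marker sums. The 13 adipocyte markers, all detected in EWAT, summed to 5404, 9465 and 7033 FPKM in the WT libraries and to 734, 34178 and 5827 FPKM in MED13cTg replicates 1, 2 and 3. The 7 markers of testis germ cells summed to 213, 228 and 303 FPKM in WT mice against to 13638, 5.83 and 344 FPKM in MED13cTg EWAT, and the 10 markers of epididymis to 53744, 52589.5 and 66153 FPKM against 8388, 166 and 50799.5 FPKM. MED13cTg replicate 1 thus had the lowest adipocyte and the highest germ cell sums, MED13cTg replicate 2 the highest adipocyte and the lowest germ cell and epididymis sums, and MED13cTg replicate 3 lay near the WT libraries. The epididymis sum was above the adipocyte sum in all 3 WT libraries and in MED13cTg replicates 1 and 3. Only in MED13cTg replicate 2 was it below. WT EWAT levels are therefore those of samples with much epididymis RNA, not of fat alone. Rank correlations of MED13cTg replicate 1 with the other 5 EWAT libraries were 0.35 to 0.494, whereas all pairs of ventricle libraries lay between 0.944 and 0.969. The EWAT fold changes of the 10 genes are therefore also given for fits without MED13cTg replicates 1 and 2.

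In WT ventricles the fatty acid binding proteins and the lipase led the list. Fabp3 stood first at 9383 ± 820 FPKM (SD, n = 3), followed by Fabp4 at 3281 ± 409 FPKM and Lpl at 1709 ± 103 FPKM, and each exceeded the next gene in all 3 libraries without overlap. Cd36 at 732 ± 329 FPKM and Gpihbp1 at 631 ± 75.6 FPKM overlapped, as did Vldlr at 106 ± 28.5 FPKM with Fabp5 at 75.7 ± 26.0 FPKM, and Angptl4 at 24.8 ± 4.66 FPKM with Lmf1 at 18.8 ± 0.968 FPKM. Slc27a1 lay between these groups at 135 ± 6.65 FPKM.

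The order in WT EWAT was different. Fabp4, the adipocyte fatty acid binding protein, was 21.0 times as high as the next gene, Lpl, at 15781 ± 7467 FPKM against 751 ± 334 FPKM (SD, n = 3). From Lpl through Cd36 (295 ± 225 FPKM), Slc27a1 (185 ± 45.8 FPKM), Angptl4 (149 ± 82.6 FPKM), Gpihbp1 (142 ± 103 FPKM) to Fabp5 (109 ± 59.7 FPKM) each gene overlapped its neighbour. Lmf1 at 15.3 ± 0.955 FPKM, Vldlr at 9.71 ± 0.499 FPKM and Fabp3 at 4.27 ± 0.989 FPKM closed the list without overlap.

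The tables of the tissues were made separately, so their levels are set side by side without a test. Epididymis markers summed to 52589.5 to 66153 FPKM in WT EWAT, against 5404 to 9465 FPKM for adipocyte markers, so its levels are not those of fat alone. In MED13cTg EWAT replicate 2, with an epididymis sum of 166 FPKM, Lpl (3675 FPKM) and Cd36 (1317 FPKM) were above all WT ventricle libraries. Gpihbp1, Vldlr and Fabp3 were below them in that library too. WT means were 2195 times as high in ventricles as in EWAT for Fabp3, 10.9 times for Vldlr, 4.44 times for Gpihbp1 and 2.28 times for Lpl, and 6.03 times as high in EWAT for Angptl4 and 4.81 times for Fabp4. In these 6 genes the WT libraries of the tissues did not overlap. Cd36 and Fabp5 overlapped between tissues. Slc27a1, higher in EWAT, and Lmf1, higher in ventricles, did not overlap either, but their means differed by less than 1.5 times. The inhibitor Angptl4 was thus low relative to the enzyme in the heart, with an Lpl to Angptl4 ratio of 63.9 to 82.1 in WT ventricles and 4.13 to 6.82 in WT EWAT.

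**Figure D1:**
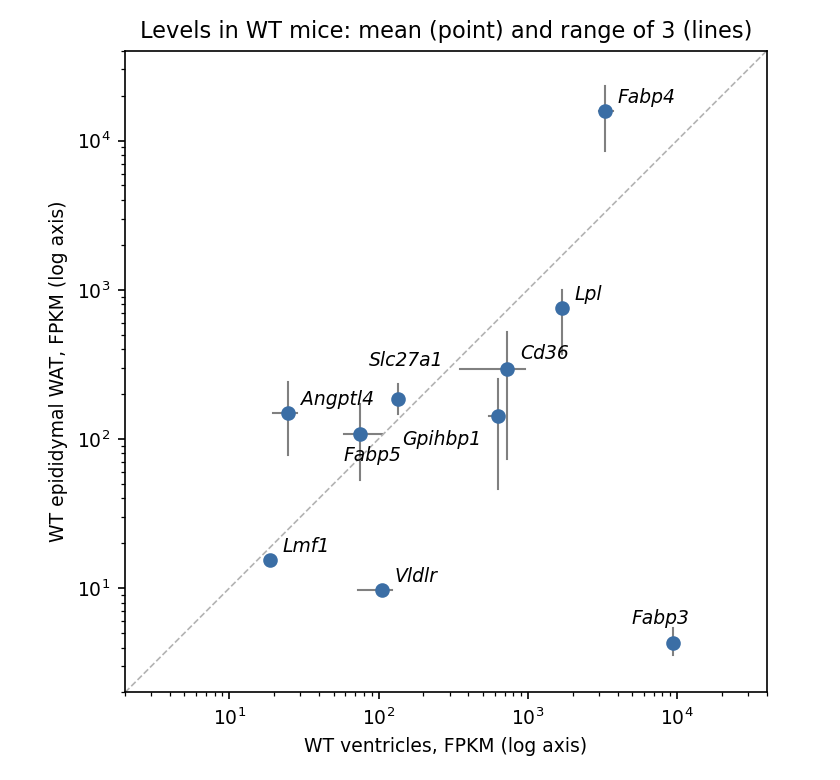
Mean FPKM of the 10 genes in WT ventricles (x, log axis) and WT EWAT (y, log axis), with lines for the range of the 3 libraries and a dashed line of equal FPKM. Fabp3 at 9383 against 4.27 FPKM lies far below the line, and Fabp4 and Angptl4 lie above it.

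In ventricles none of the 10 genes passed an adjusted p of 0.05 between genotypes (limma on log2(FPKM + 1), Benjamini-Hochberg adjustment over 12589 genes). Adjusted p-values of the 10 ran from 0.966 to 0.979, and 0 had an unadjusted p under 0.05. Over all genes, 7 or 0.0556% passed the adjusted threshold and 4.73% the unadjusted one. Of the 10, 5 had a log2 fold change above 0 and 5 below, with a median of -0.02 beside -0.01 over all genes. MED13cTg libraries did not overlap WT libraries for 1 of the 10, Fabp3, where 9.31% of all genes did not overlap in either direction. The labels do not say that each library came from a separate mouse, while the study's methods refer the n of its legends to animals, so the libraries were treated as separate mice.

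Among the lipase genes of the heart, the enzyme and its partners had lower means in MED13cTg mice, without passing the test. Lpl (chr8:71404105-71430831, mm9) was at 1599.9, 1806 and 1721 FPKM in WT replicates 1, 2 and 3 and at 1339, 1562 and 1697 FPKM in the MED13cTg replicates, a log2 fold change of -0.16 (SE 0.16, 95% interval -0.54 to 0.22). Of the MED13cTg libraries, 2 lay below all WT libraries and the other within their range. Gpihbp1 (chr15:75427087-75428643), which carries the lipase across the endothelium, was at 695, 650.3 and 548 FPKM in WT mice against 541, 589.7 and 621 FPKM in MED13cTg ventricles, a log2 fold change of -0.11 (SE 0.15, interval -0.46 to 0.25). The groups overlapped. Lmf1 (chr17:25716118-25799771), whose product the lipase needs to mature, was at 19.2, 17.7 and 19.6 FPKM in WT mice against 14, 18.4 and 16.4 FPKM in MED13cTg ventricles (log2 fold change -0.21, SE 0.12, interval -0.50 to 0.08), with 2 of 3 MED13cTg libraries below all WT libraries.

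Angptl4 (chr17:33911844-33918520), the inhibitor, was at 19.5, 28.3 and 26.6 FPKM in WT mice against 22.5, 26.9 and 31.4 FPKM in MED13cTg ventricles, a log2 fold change of 0.12 (SE 0.18, interval -0.31 to 0.55). Lpl was lower and Angptl4 higher on average, and their ratio within a library was 82.1, 63.9 and 64.8 in WT and 59.5, 58.1 and 54.0 in MED13cTg ventricles. The MED13cTg ratios were all below the WT ratios. This ratio was 1 of 12 looked at over both tissues and was not tested. In EWAT the same ratio overlapped, from 4.13 to 6.82 in WT and from 2.29 to 9.99 in MED13cTg mice.

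The genes of the cell surface also overlapped between genotypes in the heart. Cd36 (chr5:17287507-17394777), the fatty acid translocase, was at 353, 887 and 954 FPKM in WT mice against 366, 607 and 762 FPKM in MED13cTg ventricles, a log2 fold change of -0.27 (SE 0.44, interval -1.33 to 0.78). Its WT libraries alone spanned 2.70 times, the widest WT spread of the 10 genes in this tissue. Slc27a1 (chr8:74092825-74110692), which encodes FATP1, was at 138, 139 and 127 FPKM in WT mice against 129, 144 and 172 FPKM in MED13cTg ventricles (log2 fold change 0.13, SE 0.14, interval -0.21 to 0.46). Vldlr (chr19:27291426-27328721), a receptor that binds triglyceride-rich lipoproteins, was at 73.2, 121 and 124 FPKM in WT mice against 78.2, 59.6 and 107 FPKM in MED13cTg ventricles (log2 fold change -0.38, SE 0.28, interval -1.04 to 0.29). Only MED13cTg replicate 2 lay below all WT libraries for Vldlr.

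The 3 fatty acid binding proteins are related in sequence, which bears on whether reads can be told apart between them. The first 120 coding bases of Fabp4, Fabp3, Fabp5 and the testis gene Fabp9 (mouse GENCODE vM21 transcripts, 5′ to 3′) follow in lower case, with capitals for bases that are identical to Fabp4 in a global alignment of the coding sequences. Fabp9 is included because it was abundant in 1 EWAT library.
Fabp4: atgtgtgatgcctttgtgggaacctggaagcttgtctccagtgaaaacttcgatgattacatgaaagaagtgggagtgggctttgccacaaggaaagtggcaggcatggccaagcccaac
Fabp3: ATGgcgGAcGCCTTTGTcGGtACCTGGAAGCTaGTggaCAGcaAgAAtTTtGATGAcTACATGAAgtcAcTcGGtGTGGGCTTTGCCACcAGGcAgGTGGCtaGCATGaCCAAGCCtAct
Fabp5: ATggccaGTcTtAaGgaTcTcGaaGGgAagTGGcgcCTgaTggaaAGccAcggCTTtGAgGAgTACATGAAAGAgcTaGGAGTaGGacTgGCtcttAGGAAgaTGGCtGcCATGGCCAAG
Fabp9: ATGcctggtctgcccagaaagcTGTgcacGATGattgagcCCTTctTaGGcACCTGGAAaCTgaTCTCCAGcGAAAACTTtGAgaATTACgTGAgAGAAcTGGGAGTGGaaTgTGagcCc
In this stretch 89 bases of Fabp3, 71 of Fabp5 and 69 of Fabp9 matched Fabp4, and over the whole coding sequence the identity with Fabp4 was 65.1%, 60.5% and 62.2%. The matches are scattered: no 50-base window of the Fabp3, Fabp4 or Fabp5 transcript occurred in another Fabp gene (0 windows in each). Other copies share more, since 37.3% of the Fabp3 windows and 21.1% of the Fabp5 windows also occur in transcripts of other genes, foremost the pseudogene Fabp3-ps1 and the gene model Gm6166. Levels of Fabp3 and Fabp5 are uncertain to the extent that reads were divided with these copies. For the other 8 genes the share was at most 1.81%.

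Fabp3 (chr4:129986021-129992707), the heart fatty acid binding protein and the most abundant of the 10 in ventricles, was at 8888, 8932 and 10329 FPKM in WT mice against 10615, 12676 and 10531 FPKM in MED13cTg ventricles. All 3 MED13cTg libraries lay above all WT libraries, by a narrow margin between 10531 and 10329 FPKM. Its log2 fold change was 0.26 (SE 0.19, interval -0.19 to 0.72, unadjusted p = 0.211 and adjusted p = 0.966 by limma), so the difference did not pass the test. The sum of the cardiac myocyte markers was also higher in 2 of these libraries, at 69156, 68784 and 76648 FPKM in WT mice against 68386, 97181 and 83842 FPKM in MED13cTg ventricles. The markers did not move together. Myl2 was at 36273 and 27135 FPKM in MED13cTg replicates 2 and 3, above all WT libraries, whereas Ryr2 was below all WT libraries in each MED13cTg library. The mean of the list on the log2 scale, relative to WT, was -0.13, 0.24 and 0.06 in MED13cTg ventricles, beside 0.04 in WT replicate 3. Relative to the mean of that list on the log2 scale, Fabp3 stood at -0.06, -0.04 and 0.10 in WT and at 0.31, 0.19 and 0.11 in MED13cTg ventricles. The part of myocyte RNA in this difference was not tested, and more cells of a type cannot be told apart from more RNA per cell in such bulk samples.

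Fabp4 (chr3:10204342-10208576), which endothelial cells express besides adipocytes, was at 3752, 3017 and 3073 FPKM in WT mice against 3338, 4261 and 2770.1 FPKM in MED13cTg ventricles (log2 fold change 0.06, SE 0.22, interval -0.45 to 0.57). In the same 6 libraries the 10 endothelial markers, all detected, summed to 747 to 1087 FPKM and the 13 adipocyte markers to 683 to 936 FPKM. In the adipocyte list Adipoq was at 5.57 to 10.9 FPKM and Plin1 at 0.365 to 1.24 FPKM, Lep and Adrb3 were under 1 FPKM in every library, and most of the sum came from Plin4 joined with Plin5, Pnpla2 and Slc2a4, which heart muscle also expresses. The part of either cell type in the Fabp4 level was not tested. Fabp5 (chr3:10012605-10016610), the epidermal-type protein, was at 106, 63.0 and 58.4 FPKM in WT mice against 116, 151 and 61.3 FPKM in MED13cTg ventricles (log2 fold change 0.48, SE 0.37, interval -0.40 to 1.36). Its values fell into a high set and a low set, each with libraries of both genotypes. Of the FPKM of the 3 binding proteins together, Fabp3 made up 69.7% to 76.7% in WT and 74.2% to 78.8% in MED13cTg ventricles.

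**Figure D2:**
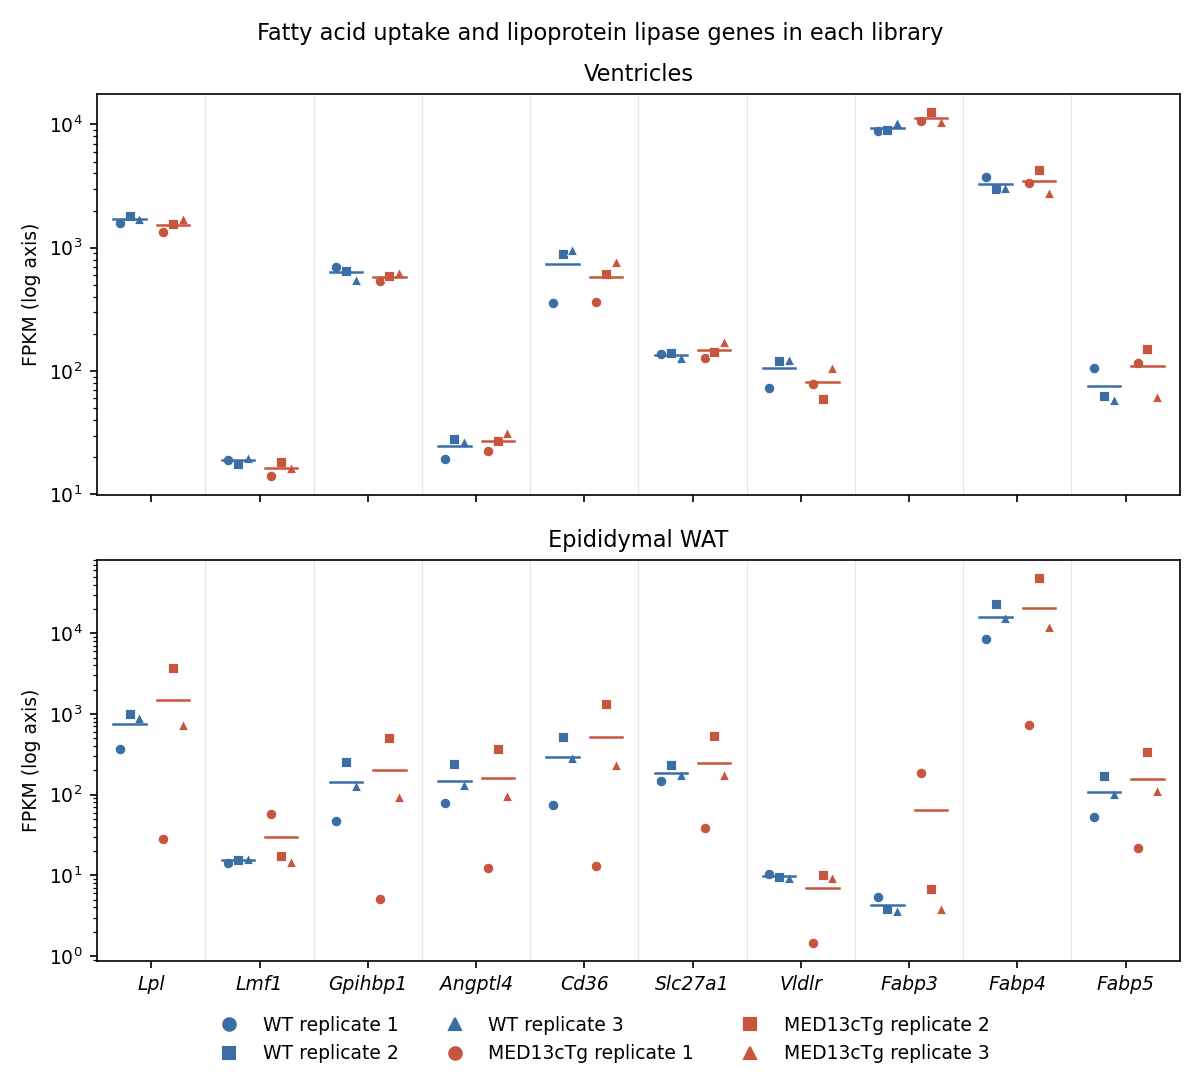
FPKM of the 10 genes in each library (log axis), with ventricles above and EWAT below, WT in blue, MED13cTg in red, symbols for the replicate numbers and bars for group means. Ventricle values of the genotypes lie close together, and in EWAT MED13cTg replicates 1 and 2 lie far apart, as for Lpl at 28.2 and 3675 FPKM.

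The split seen for Fabp5 followed a division of the ventricle libraries that crossed the genotypes. Rank correlations were 0.959 to 0.965 among WT replicate 1 and MED13cTg replicates 1 and 2, 0.966 to 0.969 among WT replicates 2 and 3 and MED13cTg replicate 3, and 0.944 to 0.957 between these sets. In the first set, Fabp5 was higher by 1.00 and Fabp4 by 0.35 on the log2 scale, and Cd36, Vldlr and Lpl stood at -1.01, -0.74 and -0.22 relative to the second set. These 5 genes did not overlap between the sets and the other 5 did, where 40.2% of all genes did not overlap. The sets were defined from the data, so this is a description. With the set as a covariate, chosen after seeing the data, the genotype difference became 0.07 (SE 0.25) for Cd36, -0.06 (SE 0.15) for Fabp4, 0.17 (SE 0.14) for Fabp5 and -0.15 (SE 0.13) for Vldlr on the log2 scale. Angptl4 was the 1 gene of the 10 with an unadjusted p under 0.05 in that fit (log2 fold change 0.26, SE 0.10, unadjusted p = 0.0455, adjusted p = 0.649 by limma), where 7.68% of all genes had one.

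In EWAT none of the 10 genes passed an adjusted p of 0.05 (limma, adjustment over 14967 genes). Their adjusted p-values ran from 0.738 to 0.984, 0 had an unadjusted p under 0.05, and for 0 of them did the genotypes not overlap. Over all genes, 2 or 0.0134% passed the adjusted threshold, 1.25% had an unadjusted p under 0.05 and 12.7% did not overlap. With the replicate number as a block, a pairing that the labels do not name, 0 genes passed over the whole table and 0 of the 10, whose lowest adjusted p was 0.751. The median standard error of the 10 log2 fold changes was 1.32, against 0.45 over all genes and the 95% intervals were correspondingly wide, from -5.06 to 3.69 for Lpl and from -0.66 to 1.96 for Lmf1.

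The direction of these genes in EWAT depended on the scale and on single libraries. On the log2 scale 8 of the 10 fold changes were below 0 and 2 above, with a median of -0.57 beside 0.01 over all genes, yet the ratio of the mean FPKM was above 1 for 9 of the 10. Without MED13cTg replicate 1 all 10 fold changes were above 0, with a median of 0.74. Without MED13cTg replicate 2, 8 were below 0 and the median was -1.52. Without both of them, an alternative chosen after seeing the data that leaves 1 MED13cTg library, 3 were above 0 and 7 below, with a median of -0.06. Without WT replicate 2, 4 were above 0. No adjusted p of the 10 fell under 0.05 in any of these fits (lowest 0.441).

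**Figure D3:**
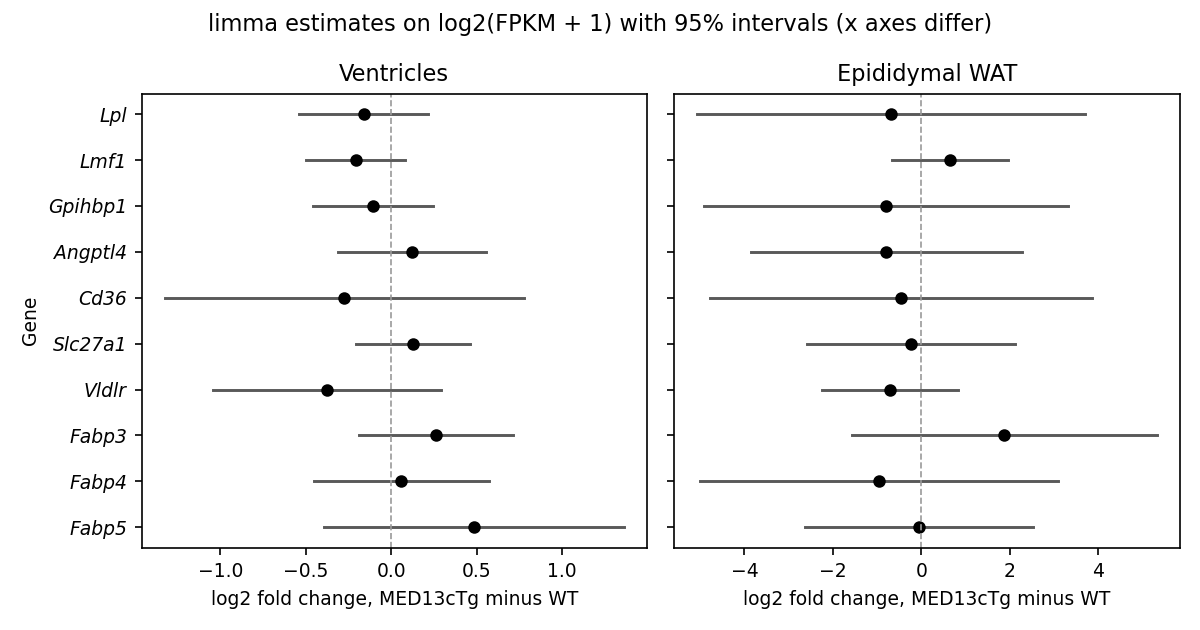
limma log2 fold changes (MED13cTg minus WT, on log2(FPKM + 1)) of the 10 genes with 95% intervals, for ventricles on the left and EWAT on the right, on x axes that differ. All intervals include 0, and those of EWAT reach from -5.06 to 3.69 for Lpl, against -0.54 to 0.22 in ventricles.

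The lipase and its endothelial partner followed the libraries closely in fat. Lpl was at 369, 992 and 891 FPKM in WT EWAT against 28.2, 3675 and 733 FPKM in MED13cTg EWAT (log2 fold change -0.68, SE 1.77). MED13cTg replicate 1 lay below and replicate 2 above all WT libraries, and replicate 3 was within their range. Gpihbp1 was at 46.5, 251 and 129 FPKM in WT mice against 5.13, 510.0 and 92.8 FPKM in MED13cTg EWAT (log2 fold change -0.80, SE 1.67), with the same order of the libraries. Their ratio was far steadier, at 3.95 to 7.93 FPKM of Lpl per FPKM of Gpihbp1 in WT and 5.50 to 7.91 in MED13cTg EWAT.

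The inhibitor Angptl4 was at 77.8, 239.8 and 131 FPKM in WT mice against 12.3, 368 and 96.8 FPKM in MED13cTg EWAT (log2 fold change -0.79, SE 1.24). Cd36 was at 73.5, 523 and 287 FPKM in WT mice against 13.1, 1317 and 233 FPKM in MED13cTg EWAT (log2 fold change -0.46, SE 1.75). Both placed MED13cTg replicate 1 lowest and MED13cTg replicate 2 highest. Slc27a1 was at 146, 235 and 173 FPKM in WT mice against 38.2, 538 and 174 FPKM in MED13cTg EWAT (log2 fold change -0.24, SE 0.95), with MED13cTg replicate 3 almost equal to WT replicate 3.

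Fabp4 reached the highest values of any of the 10 genes, at 8454, 23380.4 and 15509 FPKM in WT mice against 726, 48366 and 11969 FPKM in MED13cTg EWAT (log2 fold change -0.95, SE 1.64). Fabp5 was at 53.4, 172 and 100.5 FPKM in WT mice against 21.8, 337 and 109.8 FPKM in MED13cTg EWAT (log2 fold change -0.05, SE 1.04). In both, MED13cTg replicates 1 and 2 again lay on opposite sides of all WT libraries. The 7 genes Lpl, Gpihbp1, Angptl4, Cd36, Slc27a1, Fabp4 and Fabp5 thus shared this order, and it was also that of the adipocyte markers.

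Fabp3, Lmf1 and Vldlr behaved otherwise. Fabp3 was at 5.41, 3.83 and 3.58 FPKM in WT mice against 185, 6.78 and 3.86 FPKM in MED13cTg EWAT (log2 fold change 1.88, SE 1.39), and Lmf1 at 14.3, 15.6 and 16.1 FPKM and at 57.3, 17.3 and 14.7 FPKM (log2 fold change 0.65, SE 0.53). Their high value was that of MED13cTg replicate 1, the library with the highest germ cell markers, and without it the log2 fold changes were 0.24 and 0.06. The part of germ cell RNA in this was not tested. Vldlr was at 10.3, 9.46 and 9.38 FPKM in WT mice against 1.47, 10.2 and 9.38 FPKM in MED13cTg EWAT (log2 fold change -0.70, SE 0.62), low in that same library and level in the other 5. Its fold change without it was 0.0081.

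Setting each gene against marker lists in the same library showed how much of the spread it shared with them. Over the 6 EWAT libraries, log2(FPKM + 1) spanned 6.98 for Lpl, 6.55 for Cd36, 6.38 for Gpihbp1 and 6.06 for Fabp4. Relative to the mean of the 13 adipocyte markers the spans were 1.77, 1.91, 1.74 and 1.38. For Slc27a1 the span fell from 3.78 to 1.63 relative to adipocyte markers, and to 0.26 relative to the 10 endothelial markers. The endothelial markers summed to 221, 379 and 285 FPKM in WT mice against 45.8, 705 and 246 FPKM in MED13cTg EWAT. Relative to them the spans of Lpl, Cd36, Gpihbp1 and Fabp4 were 3.43, 3.00, 2.86 and 2.51, wider than relative to adipocyte markers. Angptl4 was also wider (1.67 against 1.17), and Fabp5 was narrower (0.86 against 1.52). For Fabp3, Lmf1 and Vldlr the span grew relative to adipocyte markers, to 9.99, 7.08 and 3.23. Relative to endothelial markers it was 8.12 for Fabp3 and 5.21 for Lmf1, while that of Vldlr fell from 2.19 to 1.86. The adipocyte list and most of these genes are expressed by the same cells, so the lists are no outside standard, and their part in the differences was not tested.

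**Figure D4:**
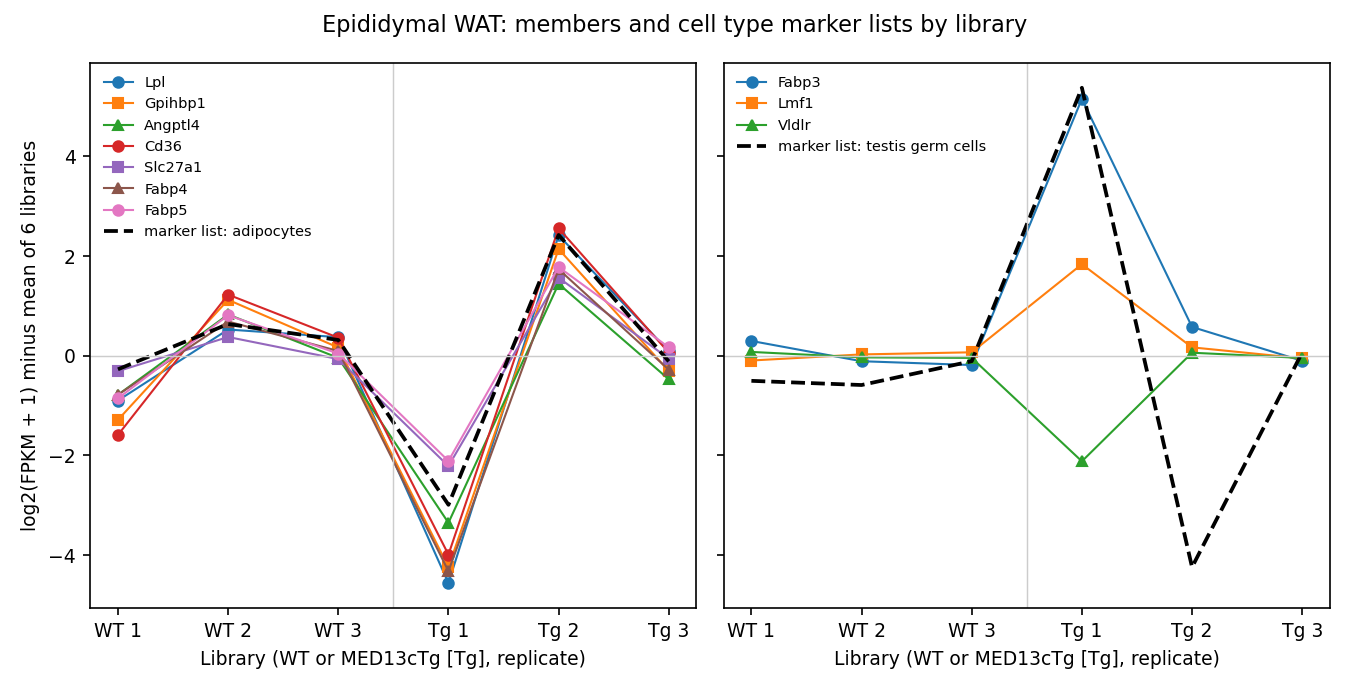
log2(FPKM + 1) of each gene in the 6 EWAT libraries, shown relative to its WT mean. Dashed lines give the mean of the adipocyte markers (left) and of the testis germ cell markers (right), relative to the mean of the 6 libraries. The axis label names this second baseline only, so genes and dashed lines have different zeros. The 7 genes on the left dip in MED13cTg replicate 1 and peak in replicate 2 together with the adipocyte list, and on the right Fabp3 and Lmf1 peak in MED13cTg replicate 1.

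A further 36 genes of fatty acid entry and activation, other binding proteins, other lipases with their cofactors, and other lipoprotein receptors were examined with the same fits. In ventricles 21 were expressed highly enough to be tested, and 0 passed an adjusted p of 0.05, with 10 fold changes above 0 and 11 below and a median of -0.03. For 1 of the 21 the genotypes did not overlap and 2 had an unadjusted p under 0.05, beside 9.31% and 4.73% of all genes. The former was Acsl6, an acyl-CoA synthetase, at 3.96, 4.48 and 4.41 FPKM in WT mice against 3.02, 2.64 and 2.96 FPKM in MED13cTg ventricles (log2 fold change -0.45, SE 0.11, unadjusted p = 0.00421, adjusted p = 0.902 by limma). The other gene with an unadjusted p under 0.05, named after its values were seen, was Furin, a protease that cleaves lipase regulators, at 33.7, 45.8 and 39.1 FPKM in WT mice against 25.9, 21.8 and 35.8 FPKM in MED13cTg ventricles (log2 fold change -0.51, SE 0.20, unadjusted p = 0.0418, adjusted p = 0.966 by limma). The largest fold changes besides were those of Fabp1 (1.14), Apoc1 (0.61) and Slc27a2 (0.51), for which a single library stood high or the values overlapped. Fabp1 was at 9.75 FPKM and Slc27a2 at 5.65 FPKM in MED13cTg replicate 1 and both were under 1 FPKM in the other 5 libraries. Both thus passed the filter on low expression only through that library.

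In EWAT 29 of the 36 were tested and 0 passed, with 12 fold changes above 0, 17 below and a median of -0.11. The genotypes did not overlap for 5 of the 29, beside 12.7% of all genes, and 2 had an unadjusted p under 0.05, beside 1.25%. Without MED13cTg replicate 1, 26 were tested with 15 fold changes above 0, without replicate 2, 28 with 8 above 0, and without both, 25 with 17 above 0, and 0 passed in each (alternatives chosen after seeing the data). Slc27a2, a very long chain acyl-CoA synthetase, was at 3.27, 3.02 and 2.17 FPKM in WT mice against 5.42, 5.88 and 6.02 FPKM in MED13cTg EWAT (log2 fold change 0.84, SE 0.24, unadjusted p = 0.0148, adjusted p = 0.738 by limma). Acsl3, whose entry is joined with the neighbouring Utp14b so that their values cannot be told apart, was at 14.8, 12.8 and 15.5 FPKM in WT mice against 23.8, 32.7 and 26.3 FPKM in MED13cTg EWAT (log2 fold change 0.89, SE 0.21, unadjusted p = 0.00659, adjusted p = 0.738). Without both MED13cTg replicates 1 and 2, the log2 fold changes were 0.89 for Slc27a2 and 0.84 for the Acsl3 entry, with an adjusted p of 0.999 by limma for each. Slc27a6, another transport protein, was also above WT in each MED13cTg library, with 5.66 FPKM in replicate 1 and 0.526 and 0.703 FPKM in the others against 0.370 to 0.458 FPKM in WT. It passed the filter on low expression only through replicate 1, yet counts among the 5 without overlap.

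Lower in each MED13cTg EWAT library, without passing the test, were Slc27a4, which encodes FATP4, and the lipoprotein receptor gene Lsr. Slc27a4 was at 25.5, 19.1 and 24.6 FPKM in WT mice against 5.79, 15.5 and 18.7 FPKM in MED13cTg EWAT (log2 fold change -0.87, SE 0.45), and Lsr at 54.2, 48.3 and 52.3 FPKM and at 25.1, 5.67 and 46.0 FPKM (log2 fold change -1.38, SE 0.72). Without both replicates 1 and 2 their log2 fold changes were -0.28 and -0.16. The largest fold changes besides were those of Lipc, hepatic lipase (-2.73), Got2, a mitochondrial aminotransferase also described as a fatty acid binding protein of the plasma membrane (-1.84), and Fabp12 (1.82). Lipc was at 40.0 to 64.2 FPKM in WT mice against 8, 0 and 48.1 FPKM in MED13cTg EWAT, low where the epididymis markers were low, and its log2 fold change without replicates 1 and 2 was -0.044, as that of Got2 was 0.054. The part of epididymis RNA in the Lipc values was not tested. Fabp12 was at 54.7 FPKM in MED13cTg replicate 1 and under 1 FPKM in the other 5 libraries, so it passed the filter only through that library. Fabp9, the testis gene shown above, was at 2000.3 FPKM in that library and at 2.01 to 27.8 FPKM in the others, alongside Fabp3 at 185 FPKM.

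Genes most like Lpl, Cd36 and Gpihbp1 were sought by the root mean square difference of centred log2(FPKM + 1) over the 6 libraries of a tissue. Among 10900 genes in EWAT, those nearest to Lpl were the adipocyte hormone gene Retn (difference 0.16), Pck1 (0.22), which encodes the cytosolic phosphoenolpyruvate carboxykinase, and Ppp1r1a (0.26). Retn is also 1 of the adipocyte markers used here. Nearest to Cd36 were Gpihbp1 (0.24), Cox8b (0.24) and Retnla (0.34), and nearest to Gpihbp1 were Cd36 (0.24), Col5a3 (0.24) and Sncg (0.24). Cd36 and Gpihbp1 were thus the nearest to each other in EWAT. In ventricles, among 9283 genes, Lpl was nearest to Bahd1, Grhpr and Sltm (0.03 each), Cd36 to Xirp1, Cux1 and Myh14 (0.20 to 0.23), and Gpihbp1 to Nxn, Frmd4b and Mnt (0.03 to 0.04). The 3 genes had no shared neighbour there. Lpl, Cd36 and Gpihbp1 themselves had a root mean square of 0.14, 0.57 and 0.13 in ventricles and of 2.13, 2.09 and 2.03 in EWAT. Smaller differences in ventricles therefore do not mean closer likeness than in EWAT.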

How the data were processed

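Values came from RNA-seq libraries (TruSeq, total RNA) of ventricles and EWAT, deposited as 1 table per tissue of FPKM that the authors computed with Cufflinks after TopHat alignment at default settings. The submitters' processing notes name build mm9. Coordinates are those of the tables. FPKM corrects for length and mapped fragments, not for the cells in a sample. The authors' group means and folds in the tables were not used, nor was 1 unnamed column of values in the EWAT table. Of 23042 entries per table, 341 join several symbols and 31 carry none.

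Each tissue was fitted alone with limma 3.58.1 in R 4.3.3 (lmFit, eBayes with trend) on log2(FPKM + 1) for genes that averaged 1 FPKM or more. The added 1 shrinks fold changes of low genes. The 10 genes, the lists and the tests were chosen with earlier results of these data known. Named genes were the 10, Med13, in each tissue those of the 36 other pathway genes without overlap between genotypes and up to 3 more by size of fold change, and the 3 genes (mean of at least 5 FPKM) most like Lpl, Cd36 and Gpihbp1.

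Replicate numbers came from the labels. Same-numbered libraries had correlations of deviations of 0.35, 0.30 and 0.14 in EWAT, all above 0.1, and 0.09, -0.19 and 0.14 in ventricles, not all above it. Fold changes, intervals and p-values of both tissues come from fits without a block unless a block is named. The number served as a block only in an alternative fit of each tissue. Differently numbered libraries reached 0.17 in EWAT (WT replicate 3 with MED13cTg replicate 2) and 0.19 in ventricles. The labels name no pairing, so the EWAT block is an assumption. Markers of macrophages (8 genes) summed to 190 to 308 FPKM in ventricles and 69.7 to 342 FPKM in EWAT, and those of red blood cells (3 of 4 listed) to 484 to 1293 and 28.9 to 547 FPKM. In ventricles the adipocyte, epididymis and germ cell lists summed to 683 to 936, 40.8 to 91.4 and 8.20 to 24.8 FPKM. On simulated data the fit recovered 190 of 200 changed genes in ventricles with 10 false calls, and 184 of 200 in EWAT with 14. Of the genes changed by 1 on the log2 scale, 90 of 94 were recovered in ventricles and 85 of 93 in EWAT. Recovery of differences as small as those of the 10 genes in ventricles was not tested. The simulated noise followed the spread of the WT libraries alone, so the wider spread of the MED13cTg EWAT libraries was not in it. The EWAT counts therefore do not tell how many changes the fit would find in the real EWAT libraries. Sums and ratios used Python 3.11.15 with numpy 2.4.6 and pandas 2.3.3, and plots were drawn with matplotlib 3.10.9.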

Additional observations from a re-analysis of the deposited data

How the results depend on the processing

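Over 15 alternatives per tissue, 143 of 150 fold changes of the 10 genes kept their direction and their side of the threshold in ventricles and 128 of 150 in EWAT; the rest changed sign, and no gene of the 10 was called under any (lowest adjusted p 0.117 and 0.434). The count of called genes in ventricles was 3 with a filter at 5 FPKM (fewer genes tested), 15 with array weights, which did not converge, 4 with the replicate block, and 4 to 9 with single libraries left out. In EWAT it was 0 without a filter, 0 with array weights, 0 with the replicate block, 19 without MED13cTg replicates 1 and 2, and 1 to 5 with single libraries left out. The block changed no other call. Except for these filters, the causes were not tested.

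In EWAT Med13, at -0.05, was 0.012 with median-of-ratios scaling, 0.071 with array weights, 0.074 without MED13cTg replicates 1 and 2, and -0.13 to 0.10 with single libraries left out. Signs changed in ventricles for Cd36 (0.071) and Fabp4 (-0.065) with the library set as a covariate, Gpihbp1 (0.023) with quantile normalization and Angptl4 (-0.13) with array weights; leaving out single libraries gave -0.73 to 0.024 for Cd36, -0.036 to 0.24 for Angptl4 and -0.10 to 0.21 for Fabp4. In EWAT signs changed with array weights for Cd36 (0.34), Lpl (0.31), Gpihbp1 (0.072), Fabp4 (0.0061), Fabp5 (0.47) and Slc27a1 (0.35), with median-of-ratios scaling for Fabp5 (0.0091), and without MED13cTg replicates 1 and 2 for Cd36 (0.063), Lpl (0.091), Fabp3 (-0.10), Fabp5 (0.17) and Lmf1 (-0.053). Leaving out single EWAT libraries gave -1.96 to 1.31 for Cd36, -2.23 to 1.25 for Lpl, -2.27 to 0.92 for Gpihbp1, -1.91 to 0.49 for Angptl4, -2.30 to 0.73 for Fabp4, -0.97 to 0.97 for Fabp5, -1.14 to 0.75 for Slc27a1 and -1.08 to 0.0081 for Vldlr. Summing several entries of a gene gave no other value, since each of the 10 had 1. Depth is unknown in absolute terms, and low values in MED13cTg EWAT replicates 1 and 2, shallower by a rough estimate, are the least precise.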

Other observations

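Of the 29 other pathway genes tested in EWAT, 12 were lowest in MED13cTg replicate 1 and highest in MED13cTg replicate 2, the order of Lpl, and 17 were not, such as Got2 and Lsr, which were lowest in replicate 2. The following 3 are among the 12. Dbi, which encodes the acyl-CoA binding protein, was at 1936, 3981 and 3585 FPKM in WT mice against 509, 8289 and 2801 FPKM in MED13cTg EWAT (log2 fold change -0.41, SE 1.09). Cav1, the caveolin of fat and endothelial cells, was at 322, 568 and 469 FPKM in WT mice against 41.3, 1848 and 401 FPKM in MED13cTg EWAT (log2 fold change -0.49, SE 1.36). Without replicates 1 and 2 these log2 fold changes were -0.11 for Dbi and -0.14 for Cav1. Acsl1, the main acyl-CoA synthetase of both tissues, was at 211, 384 and 263 FPKM in WT mice against 112, 893 and 278 FPKM in MED13cTg EWAT, and at 253, 337 and 384 FPKM in WT mice against 232, 258 and 276 FPKM in MED13cTg ventricles (log2 fold changes 0.13, SE 0.78, and -0.33, SE 0.18). Acsl6 and Pmp2, at 43.7 and 5.2 FPKM in MED13cTg EWAT replicate 1 and at most 1.22 and 0.236 FPKM in the other 5 libraries, joined Fabp3, Fabp9 and Fabp12 among the genes that were high in that library. These genes were picked after their values were seen. In EWAT Acsl6 passed the filter on low expression only through MED13cTg replicate 1. Of the 50-base windows of Pmp2, 86.7% also occur in transcripts of Gm37389, as do 49.3% of those of Fabp9.

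The make-up of the binding protein pool was nearly constant in EWAT except in that library. Fabp4 made up 99.1% to 99.3% of the summed FPKM of Fabp3, Fabp4 and Fabp5 in 5 EWAT libraries and 77.9% in MED13cTg replicate 1, where Fabp3 made up 19.8% and Fabp5 2.34%.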
